A study of Mus musculus with 3 samples.

Results

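Folr2-low macrophages of the mouse heart, the cells described here, were 442 of the 5833 cells of the series: 98 of 681 cells of the Lin28+/cKit- library and 344 of 1176 cells of the Lin28+/cKit+ library. A macrophage was a cell with 1500 or more UMIs (barcoded copies, 1 for every transcript caught) whose mean natural log value of C1qa, C1qb, C1qc, Csf1r and Cd68 reached 0.5 and exceeded its means of 5 fibroblast genes (Col1a1, Col1a2, Col3a1, Pdgfra, Dpt) and of 5 endothelial genes (Pecam1, Cdh5, Egfl7, Emcn, Tie1). Members were the macrophages whose mean of Folr2, F13a1, Cbr2 and Vsig4 lay below 1.0 on the same scale, and the other 188 and 280 macrophages of the 2 libraries are called Folr2-high. The study sorted interstitial cells of collagenase-digested hearts, spun to remove cardiomyocytes, by antibody staining for Lin28 and cKit at the cell surface, and made 1 droplet library from each of 3 sorted groups: Lin28-/cKit-, Lin28+/cKit- and Lin28+/cKit+. The labels distinguish the groups by the sort alone, and the sources used here do not give genotype, strain, treatment, age, sex or number of animals. The study's title asks about surface Lin28 together with cellular stress and senescence.

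Heart macrophages include long-lived resident cells, which carry uptake receptors such as Lyve1, Timd4 and Cd163, and cells that stem from blood monocytes, which tend to carry more MHC class II. Inflammatory macrophages secrete interleukin 1 beta (Il1b), a cytokine that activates endothelium and leukocytes, and the chemokines Ccl3 and Ccl4, which attract monocytes and lymphocytes. H2-Eb1 encodes a beta chain of MHC class II, the surface complex that presents peptides to helper T cells, and the transcription of class II genes depends on the coactivator Ciita, which acts at short upstream elements that include a Y box.

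Those elements can be read in the DNA before the start sites of the class II genes whose transcripts the members carried. The genes lie together on chromosome 17, where H2-Eb1 spans chr17:34305867-34316674 on the plus strand (mm10, GENCODE vM21). Il1b lies at chr2:129364570-129371139 on the minus strand, Ccl3 at chr11:83647844-83649355 on the minus strand and Ccl4 at chr11:83662584-83664683 on the plus strand. The windows below are the 110 bases directly upstream of 4 class II genes from the RefSeq promoter table (GRCm38.p6), 5′ to 3′ on the gene's strand, with the Y box core TGATTGG in capitals. They are H2-Eb1 at chr17:34305757-34305866 (plus strand), H2-Aa at chr17:34287824-34287933 (minus strand), H2-DMb1 at chr17:34153081-34153190 (plus strand) and H2-DMb2 at chr17:34145139-34145248 (plus strand).
H2-Eb1: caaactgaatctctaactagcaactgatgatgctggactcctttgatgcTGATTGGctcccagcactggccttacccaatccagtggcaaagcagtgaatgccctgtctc
H2-Aa: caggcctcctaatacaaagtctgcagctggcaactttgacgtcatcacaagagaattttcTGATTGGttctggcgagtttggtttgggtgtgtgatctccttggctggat
H2-DMb1: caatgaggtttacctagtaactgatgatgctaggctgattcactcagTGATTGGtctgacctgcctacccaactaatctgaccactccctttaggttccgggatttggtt
H2-DMb2: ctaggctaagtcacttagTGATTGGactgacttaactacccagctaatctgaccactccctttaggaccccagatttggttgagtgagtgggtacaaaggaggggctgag
The core begins 61 bases before the start of H2-Eb1, 50 before H2-Aa, 63 before H2-DMb1 and 92 before H2-DMb2. On either strand, TGATTGG occurred within 250 bases upstream in 7 of the 10 class II presentation genes that the table holds, of 13 in the list, against 7.23% of all 32851 windows of that length. In all, 14 spellings of motifs were searched, and this one was chosen for display after the matches had been seen. The other 13 matched between 0 and 4 of the 10 class II genes. A match describes letters in a window and was not measured as binding.

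Each group is 1 library, so no difference between libraries or sets of cells has a replicate behind it, and no test or p-value is given. Levels are UMIs summed over the cells of a set and scaled by that set's total (CPM). Intervals are exact 95% intervals for counting error only. A gene with at least 20 UMIs over both sets is said to pass the threshold when its ratio was at least 1.5 in either direction and the interval of the ratio excluded 1. Members of the Lin28+/cKit- library held 1131210 UMIs in all with a median of 11530.5 per cell, and those of the Lin28+/cKit+ library 3353325 with a median of 8954.5. Folr2-high cells were deeper, with medians of 15658 and 11418. Mitochondrial transcripts made up a median of 5.35% and 5.50% of a member's UMIs. The 2 Lin28+ libraries shared 1 cell barcode, which belonged to no member. Doublets were not called. Values without the 5% deepest macrophages, and values without macrophages that held mural, B cell or fibroblast genes, stand in for part of that step. The second setting used no endothelial or neutrophil gene, so cells were not left out for such transcripts. The Lin28 transcripts themselves are not analysed here.

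Among macrophages, 34.3% (95% exact binomial interval 28.8 to 40.1) were Folr2-low in the Lin28+/cKit- library and 55.1% (51.1 to 59.1) in the Lin28+/cKit+ library. Under each of 9 other choices of cells the share was also higher in the Lin28+/cKit+ library, down to 3.15% and 7.21% for macrophages with no UMI of the 4 cut genes. The sort selected the cells, and the share moves with depth: with scores taken from cells thinned to 1500 UMIs, an alternative added after the data had been seen, the shares were 47.9% and 67.1%. The median macrophage had 13618 UMIs in the Lin28+/cKit- library and 9846.5 in the Lin28+/cKit+ library, and the part of depth in the gap between the shares that remains after thinning was not tested.

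The 4 genes that set the cut were low in members by construction. Folr2, a folate receptor of resident macrophages, stood at 59.2 CPM in Lin28+/cKit- members and 661 in Folr2-high cells of that library, and at 72.2 and 616 CPM in the Lin28+/cKit+ library. F13a1, the A chain of clotting factor XIII, was at 284 against 1372 and at 260 against 1100 CPM. Cbr2, a carbonyl reductase, was at 123 against 617 and at 108 against 395 CPM, and Vsig4, a complement receptor, at 7.96 against 94.8 and at 3.28 against 71.7 CPM. The cut left cells with some of these transcripts among the members, since only 9 of 98 and 45 of 344 had no UMI of any of the 4. The genes of the macrophage score were close to the Folr2-high level: C1qa, a chain of the complement starter C1q, was at 4807 against 5391 CPM and at 5260 against 6090 CPM, and Csf1r, the receptor of the macrophage growth factor Csf1, at 938 against 1125 and at 891 against 949 CPM. C1qb stood at 2963 against 3242 and 3412 against 3740 CPM, C1qc at 2179 against 2295 and 2025 against 2153 CPM, and the lysosomal protein gene Cd68 at 367 against 438 and 358 against 378 CPM. The nearest scores on either side of the cut were 0.981 and 1.01 in the Lin28+/cKit- library and 0.998 and 1.01 in the Lin28+/cKit+ library, and 10 and 39 members lay within 0.1 below it, with 10 and 21 Folr2-high cells within 0.1 above it.

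All 4 marker genes of the inflammatory type were present. Il1b stood at 847 CPM (794 to 902) in Lin28+/cKit- members and 905 (873 to 938) in Lin28+/cKit+ members, with 193 and 176 CPM in Folr2-high cells and 3.66 and 14.1 CPM in endothelial cells of the same libraries, which serve as the background set. Members of both libraries were therefore close to each other for Il1b and several-fold above the other sets. Ccl3 stood at 2344 and 2627 CPM in members, 1222 and 1418 in Folr2-high cells and 25.2 and 44.4 in endothelial cells. Ccl4 stood at 6991 and 9719 CPM in members, 3579 and 4639 in Folr2-high cells and 61.8 and 155 in endothelial cells. Both chemokine genes thus stood higher in members than in Folr2-high cells, and far higher in either than in endothelial cells. H2-Eb1 stood at 263 (234 to 294) and 222 (206 to 238) CPM in members, 78.0 and 82.5 in Folr2-high cells, and 0.458 and 3.44 in endothelial cells.

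**Figure D1:**
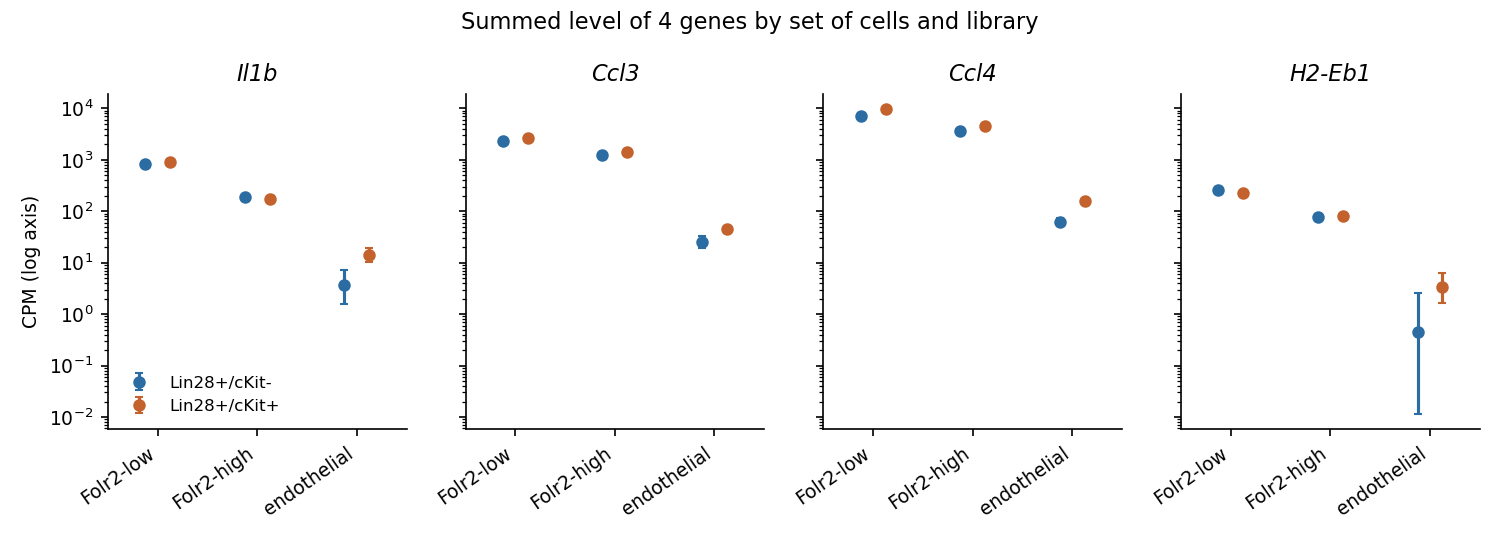
Level of Il1b, Ccl3, Ccl4 and H2-Eb1 (CPM, log axis) in Folr2-low macrophages, Folr2-high macrophages and endothelial cells of the Lin28+/cKit- (blue) and Lin28+/cKit+ (orange) libraries. Points are summed levels of 1 library and bars are exact 95% Poisson intervals for counting error; members lie highest for each gene, at 847 and 905 CPM for Il1b, and endothelial cells lowest.

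Not every member carried these transcripts. After each cell was thinned to 1500 UMIs, Il1b was detected in 33.7% of Lin28+/cKit- and 40.1% of Lin28+/cKit+ members, against 12.2% and 12.9% of Folr2-high cells and 0.769% and 2.68% of endothelial cells. Without thinning the shares of members were 55.1% and 62.5%. H2-Eb1 was detected in 29.6% and 27.0% of thinned members, in 11.7% and 8.93% of Folr2-high cells and in 0.385% and 0.670% of endothelial cells. Ccl3 was detected in 72.4% and 73.0% of thinned members and in 58.0% and 64.3% of Folr2-high cells. For Ccl4 the shares were 76.5% and 88.4% of members and 76.6% and 77.5% of Folr2-high cells. Folr2-high cells thus often carried both chemokine transcripts too. Il1b was unevenly spread: per 10000 UMIs of a cell, its median in Lin28+/cKit- members was 0.716 and its highest value 199, and in Lin28+/cKit+ members 1.47 and 95.4. Cd74, the invariant chain that escorts class II through the cell, was more even, with medians of 179 and 191 and highest values of 432 and 435. Il1b and H2-Eb1 were found together in 14.3% (8.04 to 22.8) and 13.4% of thinned members. Il1b was detected in 48.3% and 49.5% of the thinned members with H2-Eb1 and in 27.5% and 36.7% of those without it.

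The scores of members and Folr2-high cells were not separated by a gap, and genes differed in how much their levels changed at the cut. Macrophages were placed in steps of 0.25 of the score that sets the cut. In the Lin28+/cKit+ library Il1b stood at 1678 CPM in the lowest step, 460 in the 79 cells just below the cut, 291 in the 70 cells just above it and 115 in the highest step. In the Lin28+/cKit- library the matching levels were 999.9 CPM, 304 in 27 cells, 322 in 30 cells and 180 CPM, and the step above the lowest held the most, 1616 CPM. The level of Il1b on either side of the cut thus differed little beside its range over all steps. H2-Eb1 stood at 203 CPM just below and 90.9 just above the cut in the Lin28+/cKit- library and at 191 and 130 CPM in the Lin28+/cKit+ library. Lyve1, a hyaluronan receptor of resident macrophages that had no part in the score, ran the other way, from 12.9 and 4.32 CPM in the lowest step to 590 and 734 CPM in the highest. Just below and just above the cut Lyve1 stood at 60.8 and 252 CPM in the Lin28+/cKit- library. In the Lin28+/cKit+ library these levels were 97.2 and 222 CPM.

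**Figure D2:**
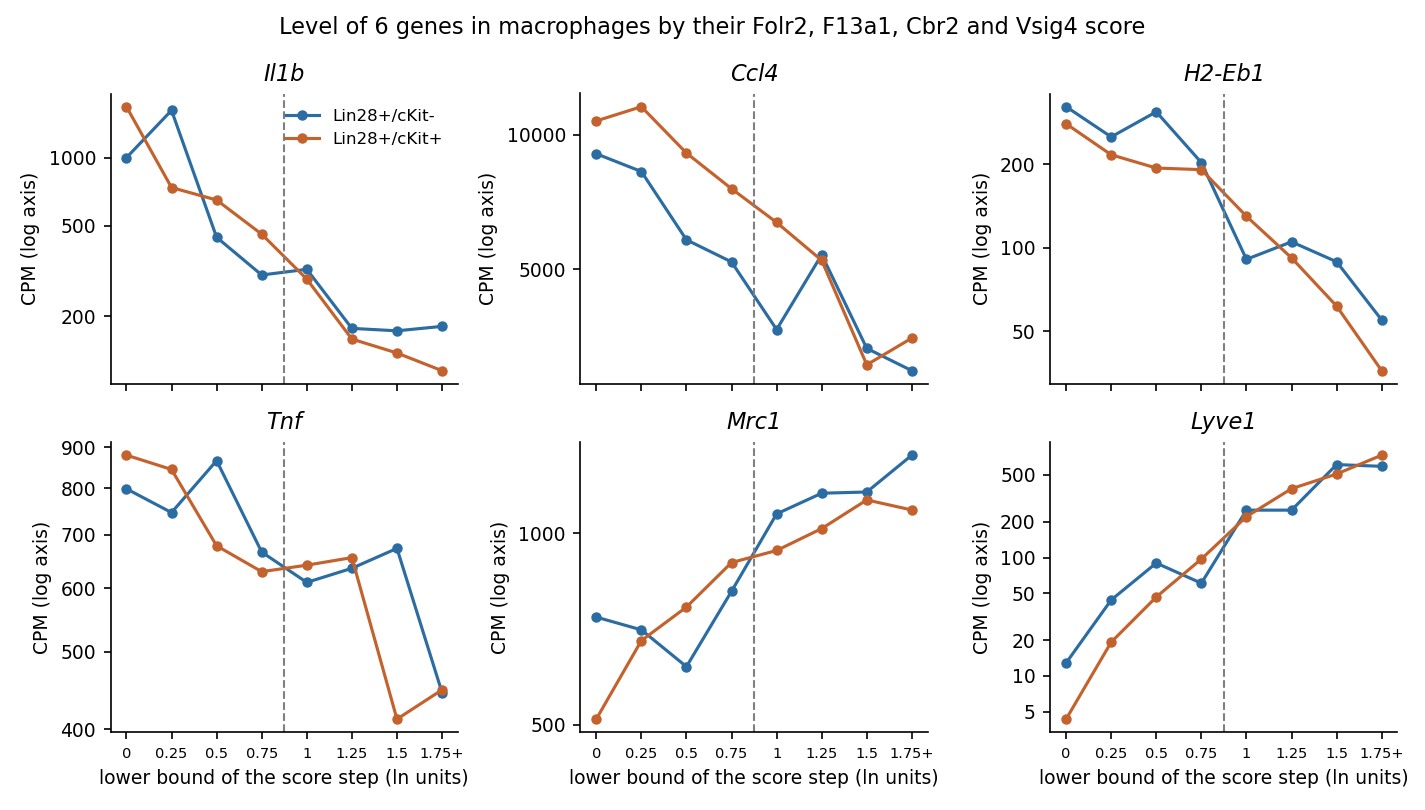
Levels (CPM, log axes) of Il1b, Ccl4, H2-Eb1, Tnf, Mrc1 and Lyve1 in macrophages grouped by the mean natural log value of Folr2, F13a1, Cbr2 and Vsig4, in steps of 0.25 named by their lower bound, for the Lin28+/cKit- (blue) and Lin28+/cKit+ (orange) libraries. Each point sums the cells of 1 step, the last step is open above, and the dashed line is the cut at 1.0; levels change in steps on both sides of the line, as for Il1b from 460 to 291 CPM in the Lin28+/cKit+ library.

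Set against Folr2-high macrophages of their own library, members had more MHC class II transcripts and fewer transcripts of uptake receptors. This contrast is the one the cut was made on, so its counts describe the members and support nothing further. In the Lin28+/cKit- library 439 of 9146 genes (4.8%) passed the threshold upward and 636 (6.95%) downward. In the Lin28+/cKit+ library 402 of 9807 (4.1%) passed upward and 737 (7.52%) downward. Of the 9074 genes measured in both, 162 (1.79%) were higher and 276 (3.04%) lower in both libraries, and the median log2 ratio of all genes was -0.09 and -0.11.

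Class II presentation genes were mostly on the higher side, 8 of 10 measured in the Lin28+/cKit- library (list median log2 ratio 1.30) and 9 of 10 in the Lin28+/cKit+ library (1.16). Cd74 was at 17366 CPM in Lin28+/cKit- members and 7281 in Folr2-high cells, and at 17128 and 7671 CPM in the Lin28+/cKit+ library. The alpha chain gene H2-Aa was at 6324 against 2483 and 5848 against 2609 CPM, and the beta chain gene H2-Ab1 at 5160 against 1973 and 5114 against 1980 CPM. H2-Eb1, with the levels above, was 3.36-fold (2.84 to 3.98) and 2.69-fold (2.35 to 3.08) higher. Thus the chains of the class II complex stood 2.24-fold to 3.36-fold above Folr2-high cells in both libraries. The loading chaperone genes followed, with H2-DMa at 481 against 251 and 521 against 280 CPM and H2-DMb1 at 223 against 80.9 and 236 against 110 CPM. Ciita, the coactivator of these genes, was at 75.1 against 40.2 CPM (1.87-fold) and 87.1 against 41.1 CPM (2.12-fold). Ctss, the protease that trims the invariant chain, did not pass, at 972 against 712 and 920 against 741 CPM.

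Cytokine and chemokine lists were mixed. Of the interleukin and TNF list, 2 of 12 measured genes were higher and 2 lower in the Lin28+/cKit- library, and 4 of 14 higher and 1 lower in the Lin28+/cKit+ library. Il1b was 4.39-fold (3.97 to 4.85) and 5.15-fold (4.73 to 5.61) higher in members, and Il1a, its close relative, stood at 44.2 against 24.0 and 37.9 against 21.3 CPM. Tnf, the tumour necrosis factor gene, did not pass, at 757 against 566 and 759 against 553 CPM. Il6, with few UMIs in members, was on the lower side in both libraries, at 2.65 against 8.96 and 1.49 against 7.64 CPM.

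Of 10 CC chemokines, 4 were higher and 4 lower in members of the Lin28+/cKit- library, and 3 higher and 5 lower in the Lin28+/cKit+ library. Ccl3 was 1.92-fold and 1.85-fold and Ccl4 1.95-fold and 2.09-fold higher, and Ccl5, a T cell attractant, stood at 17.7 against 7.80 and 24.5 against 7.64 CPM. Ccl6, Ccl8, Ccl9 and Ccl24 were on the lower side in both, as with Ccl24, the eosinophil attractant eotaxin-2, at 98.1 against 384 and 135 against 415 CPM. The list therefore split by gene, with the same 7 genes on the same side in both libraries. Ccl12 passed in 1 library, at 543 against 247 CPM in Lin28+/cKit- cells and 482 against 378 CPM in Lin28+/cKit+ cells. Of 7 CXC chemokines, 3 and 2 were higher and none lower, Cxcl14 in both libraries, at 24.8 against 4.62 and 23.6 against 6.59 CPM. Cxcl2, a neutrophil attractant, did not pass, at 13788 against 12090 CPM and 18194 against 14446 CPM.

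Among 19 NF-kB members and feedback genes, 4 were higher and 1 lower in the Lin28+/cKit- library and 4 higher in the Lin28+/cKit+ library. Ptgs2, the inducible cyclooxygenase, was at 53.04 against 24.6 and 54.3 against 20.8 CPM, and the feedback gene Tnip3 at 54.8 against 19.9 and 44.4 against 16.3 CPM. Il1r2, the decoy receptor of interleukin 1, was at 16.8 against 3.76 and 9.84 against 2.11 CPM. Of the matrix metalloproteinases and their inhibitors, 3 were higher and 1 lower of 5 measured genes in the Lin28+/cKit- library and of 6 in the Lin28+/cKit+ library, while the summed level of the list was 823 CPM in members against 852 in Folr2-high cells and 670.1 against 779 CPM. Mmp13, a collagenase, was at 290 against 78.9 and 204 against 65.3 CPM, and Mmp12, the macrophage elastase, at 31.8 against 3.47 CPM in the Lin28+/cKit- library and at 22.4 CPM in Lin28+/cKit+ members against 1 UMI in Folr2-high cells (ratio 84.9, 14.8 to 3397). Of 14 core macrophage genes outside the rule, none was higher and 2 were lower in both libraries, and of 16 heat shock genes 1 was lower in both, Hspb1, at 121 against 219 and 151 against 324 CPM.

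Other genes passed upward in both libraries by the rule for named genes, which took the 12 with the largest smaller fold of 31 eligible. Besides Il1b, Mmp13 and the class II genes, these were Cytip (126 against 34.97 and 129 against 32.9 CPM), which regulates leukocyte adhesion, Cd52, a small surface glycoprotein of leukocytes (359 against 86.7 and 356 against 122 CPM), the tetraspanin Cd9 (171 against 66.2 and 192 against 85.9 CPM), Cd72, a lectin-like receptor (121 against 45.7 and 103 against 46.9 CPM), Glipr1 and Stmn1. Stmn1 destabilises microtubules and marks dividing cells, and it stood at 108 against 38.7 and 134 against 50.6 CPM. The proliferation list had 10 of 16 genes higher in the Lin28+/cKit- library and 13 of 18 in the Lin28+/cKit+ library, with medians of 1.28 and 1.34 on the log2 scale. Few cells carried these transcripts: Mki67, which marks cycling cells, was found in 10 of 98 and 20 of 344 members, and 51 of its 88 UMIs in Lin28+/cKit- members came from 1 cell.

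Genes of resident macrophages outside the rule were on the lower side, 17 of 23 measured in the Lin28+/cKit- library (median log2 ratio -0.99) and 16 of 22 in the Lin28+/cKit+ library (-0.94), and none was higher. Retnla, resistin-like alpha, had the largest fold, at 62.8 CPM in members against 1049 in Folr2-high cells and at 44.7 against 672 CPM. Lyve1 stood at 52.2 against 500.3 and 41.7 against 445 CPM, and Timd4, a receptor for dying cells, at 30.1 against 138 and 19.4 against 111 CPM. Members therefore held 9.59-fold and 10.7-fold less Lyve1 and 16.7-fold and 15.02-fold less Retnla than Folr2-high cells. Colec12, a scavenger receptor, stood at 27.4 against 142 and 28.3 against 132 CPM. Ltc4s, which makes leukotriene C4, stood at 50.4 against 312 and 71.3 against 300.4 CPM, and the growth factor gene Igf1 at 46.9 against 121 and 36.1 against 103 CPM. The other genes named by the rule, Wfdc17, Ccl24, Emp1, Fxyd2, Ccl6 and Nupr1, were between 2.60-fold and 5.02-fold lower. The mannose receptor gene Mrc1 differed less, at 726 against 1218 CPM and 709 against 1039 CPM, and passed in the Lin28+/cKit- library alone.

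Monocyte markers were mostly on the lower side, 4 of 5 measured in the Lin28+/cKit- library (median log2 ratio -0.79) and 5 of 7 in the Lin28+/cKit+ library (-0.70), with 1 higher in each. S100a4, S100a6, Lyz2 and Itgam were lower in both libraries. The higher gene was Ccr2, the receptor that brings monocytes into tissue, at 76.9 against 34.7 and 54.3 against 32.7 CPM. The shares of thinned cells with Ccr2 differed little, at 6.12% of members against 5.32% of Folr2-high cells and 5.23% against 4.29%. Lyz2, lysozyme, stood at 6009 against 10373 and 7345 against 11135 CPM. Plac8 had no UMI in Lin28+/cKit- members and 3 in Lin28+/cKit+ members. Ly6c2 and Chil3 were listed for neither Lin28+ library, so they have no value here. Markers of nonclassical monocytes, a separate list, went the other way. Of these, 3 of 6 measured were higher in the Lin28+/cKit- library and 3 of 7 in the Lin28+/cKit+ library, and none was lower. Their median log2 ratios were 0.55 and 0.42. Interferon response genes were lower more often than higher, with 6 of 20 and 4 of 23 on the lower side and 0 and 1 on the higher side, among them Ifitm3, a membrane restriction factor, at 399 against 765 and 429 against 749 CPM. Complement genes outside the rule gave 4 of 9 and 4 of 8 on the lower side, such as Cfp, properdin, at 68.1 against 167 and 59.0 against 148 CPM.

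Transcripts of other cell types moved with the same contrast. Of 10 endothelial markers 7 were higher in members in each library, their summed level was 972 CPM in members against 412 in Folr2-high cells and 779 against 496 CPM, and no marker was at 0 in any set. Pericyte and muscle markers were higher for 3 of 3 measured genes in the Lin28+/cKit- library (summed 254 against 15.03 CPM), where 1 member held many of these UMIs, and for none of 2 in the Lin28+/cKit+ library (20.9 against 16.3 CPM). B cell markers were higher for 3 of 4 (239 against 219 CPM) and none of 3 (195 against 213 CPM), and neutrophil markers for 2 of 2 (46.0 against 20.8 CPM) and 1 of 2 (20.3 against 16.1 CPM). At least 1 pericyte or muscle, B cell and neutrophil marker each was at 0 in Folr2-high cells of 1 library or both. Cells with UMIs of both Xist, made in female cells, and Y-linked genes were fewer among members, 2.04% and 1.45%, than among Folr2-high cells, 11.2% and 11.4%, which were also deeper. The part of these values in the differences above was not tested. When macrophages that held a UMI of any of 9 mural, B cell and fibroblast genes were left out, an alternative chosen after the data had been seen, 285 genes were higher in the Lin28+/cKit- library in place of 439, and Il1b, Ccl3, Ccl4 and H2-Eb1 still passed the threshold in both libraries. Of 16 settings with 1 choice changed at a time, the main one included, H2-Eb1 passed upward in all 16 in both libraries. Il1b passed in 16 in the Lin28+/cKit+ library and in 15 in the Lin28+/cKit- library, the exception being the 9 members without a UMI of the 4 cut genes, at a ratio of 0.479.

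**Figure D3:**
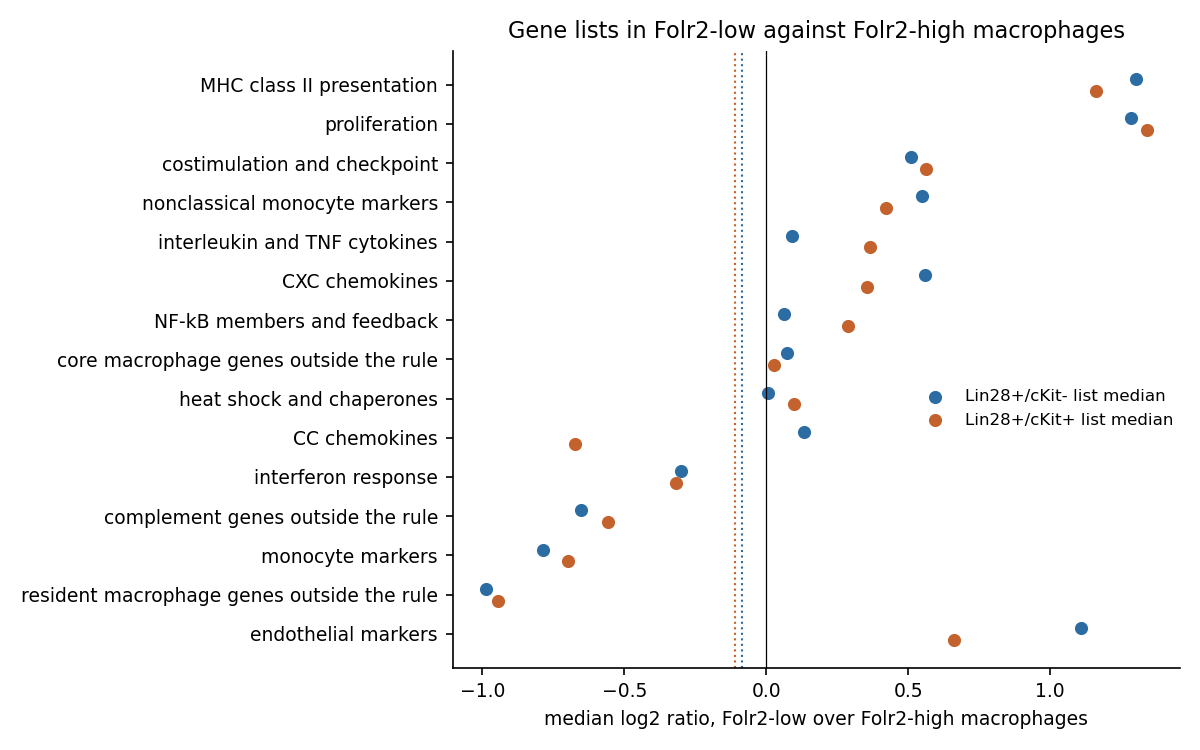
Median log2 ratio of the measured genes of 15 lists, Folr2-low over Folr2-high macrophages, in the Lin28+/cKit- (blue) and Lin28+/cKit+ (orange) libraries. Dotted lines are the medians of all measured genes, -0.09 and -0.11; class II presentation lies at 1.30 and 1.16, resident macrophage genes at -0.99 and -0.94, and endothelial markers, shown last, also lie to the right.

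The comparison of the 2 libraries within members is separate from the rule. Lin28+/cKit+ members carried Il1b, Ccl3 and most class II genes at levels near those of Lin28+/cKit- members. Ccl4 stood higher in Lin28+/cKit+ members, short of the threshold, and the genes that differed most were few or came from few cells. Of 9011 genes measured, 140 were higher (1.55%) and 543 lower (6.03%) in Lin28+/cKit+ members, 7.58% in all, with a median log2 ratio of -0.08. The split depends on the scaling: with TMM (trimmed mean of M values) totals 332 were higher and 302 lower, the median moved to 0.06, and directions below are given for the plain totals. In Folr2-high macrophages the same comparison gave 1.75% higher and 3.43% lower of 9840 genes, 5.18% in all.

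The markers did not pass the threshold between the libraries. The ratio of Lin28+/cKit+ to Lin28+/cKit- members was 1.07 for Il1b, 1.12 for Ccl3, 1.39 for Ccl4 and 0.845 for H2-Eb1. Ccl4 passed in 4 of the alternatives, at 1.51 without the 5% deepest macrophages, 1.57 with thinned cells, 1.53 with TMM totals and 1.61 as a mean over cells. With the 45 and 9 members that held no UMI of the cut genes, Il1b reached 9.74 and Ccl3 1.63. Of 11 measured interleukin and TNF genes 1 was higher and none lower, of 10 CC chemokines 1 was lower, of 7 CXC chemokines 1 was lower, and of 19 NF-kB genes none passed. None of 14 core macrophage genes and none of 16 heat shock genes passed either. Tnf stood at 757 CPM in Lin28+/cKit- members and 759 in Lin28+/cKit+ members, with a ratio of 1.00 (0.928 to 1.09). Cdkn1a, the p21 cell cycle inhibitor, known for its increase in stressed and senescent cells, stood at 776 and 744 CPM in members. In Folr2-high cells of the same libraries Cdkn1a was at 516 and 584 CPM. Cdkn2a, the p16 and p19 locus, had 4 and 16 UMIs in members. Kit, which encodes the cKit used for the sort, had 3 UMIs in the members of each library, so the transcript was near 0 on both sides of the sort.

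Among the genes named on the higher side, the first was Gdf15, a stress-induced cytokine of the TGF-beta superfamily. Gdf15 stood at 30.9 CPM in Lin28+/cKit- members (35 UMIs in 9 cells) and 150 CPM in Lin28+/cKit+ members (503 UMIs in 48 cells), a ratio of 4.85 (3.44 to 7.04). In Folr2-high cells it stood at 113 and 98.3 CPM. The level in Lin28+/cKit- members was thus the low one of the 4 sets, and 117 of the 503 UMIs came from 1 cell. The ratio was 6.79 without the top cell of each library and 2.5 without cells that held mural, B cell or fibroblast genes.

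Gem, a small GTPase of the Rad family, stood at 76.9 and 156 CPM (2.03, 1.62 to 2.58) and was found in 32 and 138 members. Cyr61, a matricellular protein, stood at 53.9 and 103 CPM and the kinase gene Pim3 at 178 and 296 CPM. In Folr2-high cells Gem, Cyr61 and Pim3 did not pass, at 116 and 103, 147 and 115, and 272 and 299.6 CPM. Isg15, an interferon-induced ubiquitin-like protein, was at 133 and 200 CPM (1.5, 1.26 to 1.81) in members and 98.9 and 155 CPM in Folr2-high cells. Isg15 passed in 11 of 18 settings, and its ratio was 0.858 with the cut at 0.5 and 2.61 without the 5% deepest macrophages. A single cell held 63 of its 150 UMIs in Lin28+/cKit- members and 71 of 669 in Lin28+/cKit+ members. Hist1h2ap, a histone of the S phase with near-identical copies among which reads could be split, stood at 50.4 and 215 CPM, but 711 of its 722 UMIs in Lin28+/cKit+ members came from 15 cells with cycling transcripts, and the ratio was 0.910 without the 5% deepest macrophages.

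On the lower side 24 genes were eligible and 12 were named. The 3 with the largest folds came from few cells of the Lin28+/cKit- library. Igkc, an antibody light chain, had 141 UMIs in 4 Lin28+/cKit- members, 93 of them in 1 cell, and 3 UMIs in Lin28+/cKit+ members (ratio 0.00718, 0.00146 to 0.0214). Rgs5, a pericyte gene, stood at 129 and 9.54 CPM with 74 of 146 UMIs in 1 cell, and Mgp, a matrix protein gene of vessel wall and stroma, at 133 and 14.6 CPM with 98 of 150 UMIs in 1 cell. Without the top cell of each library the Mgp ratio was 0.293 in place of 0.110, and with the cut at 0.5 it was 1.40. B cell genes had 110 UMIs and mural cell genes 123 UMIs in 1 Lin28+/cKit- cell each.

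Genes with a broader spread followed. AC160336.1, a long intergenic noncoding RNA, stood at 527 CPM in 72 of 98 Lin28+/cKit- members and 197 CPM in 219 of 344 Lin28+/cKit+ members (0.374, 0.334 to 0.418), and also passed in Folr2-high cells (0.518). Ftl1-ps1, by its name a pseudogene of the ferritin light chain gene but annotated as protein coding, could share reads with that gene. Ftl1-ps1 stood at 197 and 87.4 CPM and also passed in Folr2-high cells (0.473). Ccl7, a monocyte attractant, stood at 278 and 129 CPM (0.466, 0.402 to 0.541) in 23 and 52 cells, with 114 and 149 UMIs in the top cell of each library. Its ratio was 0.479 without those cells, 2.5 with the cut at 0.5, and in Folr2-high cells Ccl7 stood at 202 and 255 CPM. Cxcr4, the receptor of Cxcl12, was at 142 and 75.1 CPM, and S100a6, a calcium-binding protein, at 130 and 72.8 CPM. The remaining 4, Myl2, Tpm1, Emp1 and Polr2l, had ratios from 0.509 to 0.533.

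**Figure D4:**
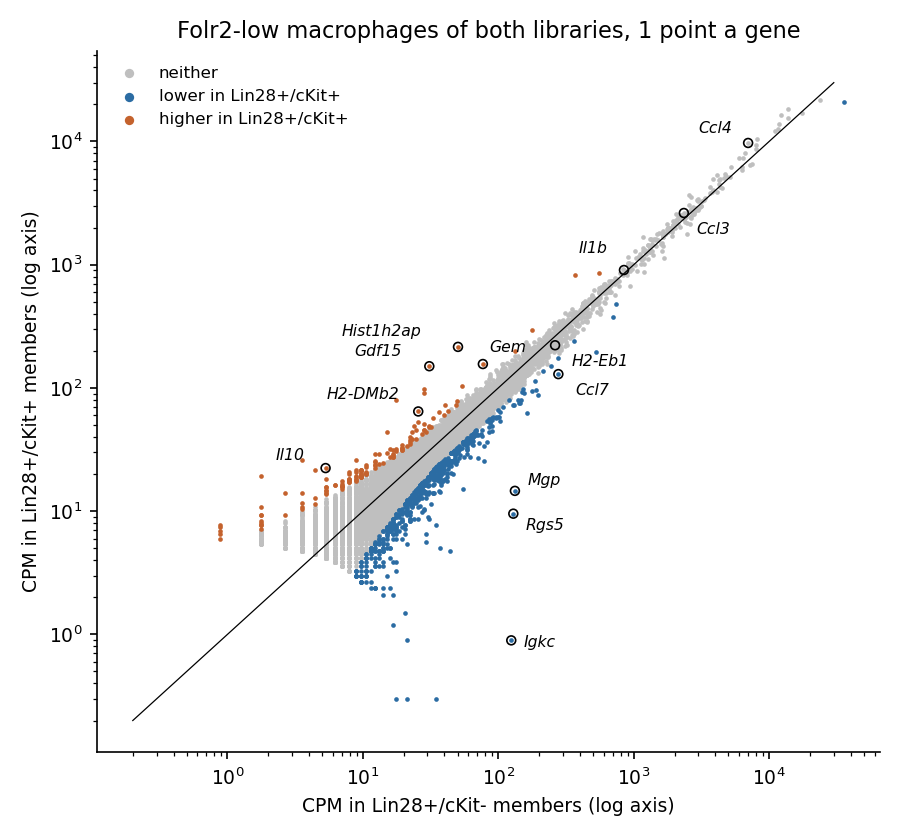
Level of each measured gene with at least 1 UMI in both libraries (CPM, log axes) in Folr2-low macrophages of the Lin28+/cKit- (horizontal) and Lin28+/cKit+ (vertical) libraries. Orange and blue points passed the threshold upward and downward, the line marks equal levels, and circles mark named genes; Il1b, Ccl3 and H2-Eb1 lie near the line, Gdf15 at 150 against 30.9 CPM above it and Igkc, Rgs5 and Mgp below it.

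Within the lists, single genes differed. H2-DMb2, a class II chaperone chain with a close paralog in H2-DMb1, stood at 25.6 and 64.4 CPM (2.51) in members and was also higher in Folr2-high cells of the Lin28+/cKit+ library (3.0). Il10, the gene of an anti-inflammatory cytokine, had 6 and 75 UMIs, or 5.30 and 22.4 CPM, in 4 and 16 members. Ifit2, an interferon-induced gene, was at 3.54 and 25.9 CPM, in 4 and 18 members, with 22 of 87 UMIs in 1 Lin28+/cKit+ cell. Oas1a was at 10.6 and 20.9 CPM, and with Isg15 these were the 3 of 18 measured interferon genes on the higher side. In that list 1 gene was lower, and the list median log2 ratio was -0.15 against -0.08 for all genes. Mertk, a receptor for the uptake of dying cells, was at 108 and 69.5 CPM. Mki67, Top2a and Ube2c were on the lower side and Tyms and Rrm2 on the higher side of the 18 proliferation genes. Of 10 endothelial markers 3 were lower, and their summed level was 972 and 779 CPM. S100a8, a neutrophil gene, was listed in the Lin28+/cKit- table and not in the Lin28+/cKit+ table, and 248 of the 268 neutrophil UMIs of Lin28+/cKit- members were in 1 cell. The part of these cells in the ratios of other genes was not tested beyond the 2 settings that leave cells out, and without the top cell of each library for each gene 242 genes were higher and 285 lower.

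Members also differed among themselves. In each library the members were ranked by the mean natural log value of Il1b, Ccl3 and Ccl4, and the 32 (Lin28+/cKit-) or 114 (Lin28+/cKit+) highest were set against as many lowest. These are ranges of a score, not types. The highest members were deeper, with median UMIs of 12683.5 against 8910 and 9244.5 against 8475. Genes higher in the highest members made up 5.36% of 3901 and 2.11% of 7051 genes, and lower genes 8.54% and 9.42%.

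Some other inflammatory genes were higher at the high end of the score, though most genes of their lists did not pass. The interleukin and TNF list had 2 of 5 and 3 of 9 measured genes higher, the NF-kB list 5 of 16 (1 lower) and 1 of 19, and the inflammasome and IL-1 list 1 of 7 and 2 of 13. Interferon response genes had 3 of 7 higher in the Lin28+/cKit- library, and 2 of 12 higher and 3 lower in the Lin28+/cKit+ library. Tnf stood at 1165 CPM in the highest and 378 in the lowest Lin28+/cKit- members and at 1077 and 395 CPM in the Lin28+/cKit+ library. Cxcl10, an interferon-inducible T cell attractant, stood at 2218 and 341 CPM and at 1721 and 689 CPM, and Cxcl1 and Cxcl2 were higher in both libraries too, as 4 of 5 and 4 of 6 CXC chemokines were. Nlrp3, the inflammasome sensor, was at 397 and 204 CPM and at 483 and 197 CPM. Ifnb1, the interferon beta gene, was at 67.4 and 3.71 CPM (1 UMI in the lowest) and at 156 and 46.3 CPM, and was named after its values had been seen. H2-Eb1 was higher by 1.69-fold and 1.55-fold, at 282 against 167 and 276 against 178 CPM, the only 1 of 8 and of 9 measured class II genes to pass. The genes named here are ones that stood higher in both libraries, so their shared direction describes them and not their lists.

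Lower genes in the highest members included Klf2, a transcription factor of quiescent leukocytes and endothelium, at 516 against 2775 CPM and 821 against 2512 CPM, and Klf4, at 307 against 805 and 275 against 759 CPM. S100a4, a calcium-binding protein of motile cells, was at 4.99 (2 UMIs) against 245 and 22.5 against 180 CPM, and Ccr2 at 47.4 against 141 and 26.2 against 95.4 CPM. Monocyte markers were on the lower side for 3 of 5 and 5 of 6 measured genes. Members with a high score from the 3 genes therefore carried less Ccr2 and S100a4 than members with a low one. Of the resident genes, Lyve1 was at 19.96 against 156 and 23.4 against 71.8 CPM and Cd163 at 19.96 against 134 and 44.0 against 100 CPM. Endothelial markers were lower too, 3 of 3 and 8 of 9 measured, as with Aqp1, a water channel of capillaries, at 4.99 against 215 and 20.6 against 49.1 CPM, and their part in the other differences was not tested. Proliferation genes went in opposite directions, with 9 of 10 higher in the Lin28+/cKit- library and 10 of 17 lower in the Lin28+/cKit+ library, the difference itself not being tested. In the Lin28+/cKit- library 239 of the 406 UMIs of 13 cycling genes in members came from 1 cell.

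Ranked by H2-Aa, H2-Ab1, H2-Eb1 and Cd74 instead, the highest members had more of 3.37% of 4181 and 1.6% of 7183 genes and less of 11.8% and 8.23%. Median UMIs of the highest and lowest members were 12129.5 against 8505.5 in the Lin28+/cKit- library and 8675.5 against 9359 in the Lin28+/cKit+ library. Of the class II genes outside the score, 4 of 4 and 5 of 6 measured were higher and none lower: H2-DMa stood at 692 against 170 and 795 against 246 CPM, H2-DMb1 at 343 against 44.1 and 372 against 83.8 CPM, and Ciita at 89.5 against 28.4 and 126 against 40.2 CPM. Il1b was higher in class II-rich members, at 1472 against 741 CPM (1.99-fold) and 1496 against 531 CPM (2.82-fold), and Ccr2 was too, at 99.1 against 28.4 and 54.0 against 31.2 CPM. The monocyte list that holds Ccr2 had 1 of 5 measured genes higher and 2 lower in the Lin28+/cKit- library and 3 of 6 higher in the Lin28+/cKit+ library. Proliferation genes were lower in class II-rich members for 8 of 10 and 13 of 14 measured genes, as with Mki67 at 31.4 against 236 and 9.0 against 55.0 CPM. Ccl7 stood at 31.4 against 375 and 20 against 283 CPM. Endothelial markers were lower for 6 of 6 and 9 of 9 measured genes, as with Fabp4, a fatty acid carrier of capillaries, at 106 against 2257 and 347 against 976 CPM, and their part was not tested.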

How the data were processed

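Three-prime droplet libraries of polyA RNA were made from 3 sorted groups, 1 library each, so no group has a replicate. The deposited values are natural log (ln) expression: the authors processed reads with Cell Ranger and Seurat 4.0.2 on mm10, per the submitters' processing notes, and the values fit ln(1 + 10000 × UMIs / total). Whole UMIs were recovered from every value and analysed as sums, in place of the unit assumed in the design. Library totals were 7401174 UMIs (Lin28+/cKit-) and 10400648 UMIs (Lin28+/cKit+). The members and gene lists were chosen with earlier results of these data known.

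Levels are CPM of summed UMIs, with exact Poisson intervals for levels, exact conditional binomial intervals for ratios and Clopper-Pearson intervals for shares, all at 95% and for counting error only. No p-value was computed. Genes had to be listed in both Lin28+ tables (14186 genes) and reach 20 UMIs over both sets. The text names, per direction, up to 12 genes with the largest fold among those past 1.5-fold whose higher set held 100 CPM and 50 UMIs or more (in both libraries for members against Folr2-high cells, ranked by the smaller fold), and genes of the lists. Mitochondrial, ribosomal protein, haemoglobin, Gm, Rik and the rule's own genes were passed over, and some results are not reported here. For detection shares, cells were thinned to 1500 UMIs. No doublet caller was run. Of 33 gene lists, those that bear on macrophages and on other cell types are given. The 14 motif spellings were the NF-kB motif in 5 forms (GGGNNTTCC and 4 longer ones), the Y box (TGATTGG and CTGATTGG), PU.1 (GAGGAAGT and AGAGGAAG), AP-1 (TGACTCA and TGANTCA), CRE (TGACGTCA), the ETS-IRF composite and STAT (TTCNNNGAA), on both strands, with forms of a motif overlapping each other. The ratio calls were run on simulated counts with counting error alone. That run cannot show how the calls fare where the UMIs of a gene come from few cells. Alternatives numbered 38 planned and 5 added after the data had been seen. Python 3.11.15, numpy 2.4.6, scipy 1.17.1, pandas 2.3.3 and matplotlib 3.10.9 were used.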

Additional observations from a re-analysis of the deposited data

Results flagged for a closer look

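In all, 10 genes passed the threshold in opposite directions in the 2 libraries, members against Folr2-high cells. The 3 given here are those that the text names by its rule or lists, and the difference between the libraries was not tested. Il10 had a ratio of members to Folr2-high cells of 0.282 in the Lin28+/cKit- library (5.30 against 18.8 CPM, in 4 and 11 cells). In the Lin28+/cKit+ library the ratio was 4.47 (22.4 against 5.01 CPM, in 16 and 10 cells). A single cell held 3 of 6 and 32 of 65 of these UMIs in the Lin28+/cKit- library. In the Lin28+/cKit+ library a single cell held 15 of 75 and 7 of 19. Gem had ratios of 0.660 (76.9 against 116 CPM) and 1.51 (156 against 103 CPM). Gdf15 had ratios of 0.274 (30.9 against 113 CPM) and 1.53 (150 against 98.3 CPM). The second ratio was 1.08 without macrophages that held mural, B cell or fibroblast genes.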

How the results depend on the processing

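No paired analysis was possible because each group is 1 library and the labels carry no replicate numbers. The share of Folr2-low macrophages (34.3% and 55.1%) was 18.2% and 30.1% with the cut at 0.5, 55.9% and 79.8% at 1.5, 3.15% and 7.21% for cells with no UMI of the 4 genes, and 47.9% and 67.1% with thinned scores. Between the libraries, 140 genes were higher and 543 lower in Lin28+/cKit+ members. With thinned cells 60 and 169, with TMM 332 and 302, as a mean over cells 801 and 1525, by fold alone 621 and 1140, and without the top cell 242 and 285 passed, and with no UMI of the 4 genes 133 were lower. Against Folr2-high cells the counts in the Lin28+/cKit- library (439 and 636) were 290 and 214 with no UMI of the 4 genes and 105 and 163 thinned. They were 1117 and 1500 as a mean over cells and 839 and 1322 by fold alone. In that library 272 were higher with at least 50 UMIs and 285 without cells with mural, B cell or fibroblast genes. In the Lin28+/cKit+ library (402 and 737) they were 144 and 315 thinned, 794 and 1243 as a mean over cells and 692 and 1154 by fold alone. Split at the median of the class II score, the Il1b ratio was 1.81 in place of 2.82 (Lin28+/cKit+). Without thinning Il1b and H2-Eb1 were together in 42.9% and 47.1% of members.

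Between libraries, directions turned for Isg15 (0.858), Mgp (1.40) and Ccl7 (2.5) with the cut at 0.5, Il10 (0.503) at 1.5, AC160336.1 (2.17) with no UMI of the 4 genes, Hist1h2ap (0.910) without the 5% deepest cells and Mgp (1.11) in the lowest 25% of macrophages. Against Folr2-high cells, Il10 turned in the Lin28+/cKit- library at a cut of 1.5 (8.06) and without cells with mural, B cell or fibroblast genes (1.65). With no UMI of the 4 genes, which leaves 9 and 45 members, Il1b (0.479), Ccl3 (0.952), Cdkn1a (0.478) and Mmp13 (0.828) turned in the Lin28+/cKit- library and Gem (0.923) and Gdf15 (0.319) in the Lin28+/cKit+ library. The cause was not tested. Of the other values of single genes under the settings chosen at the outset, 1044 moved by less than counting error and 274 by more. No ratio was given where a side had under 3 UMIs, as for 29 gene values with no UMI of the 4 genes and 9 with thinned cells. The 98 Lin28+/cKit- members limit genes under 20 UMIs, and a lone library gives no spread between animals.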

Other observations

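Cells in cycle were few among members. By at least 5 UMIs of 13 cycling genes, a list made after the data had been seen, 6 of 98 (6.12%) and 15 of 344 (4.36%) members were counted, against 10 of 188 (5.32%) and 8 of 280 (2.86%) Folr2-high macrophages. Their median class II score was 2.64 against 3.61 for the other members in the Lin28+/cKit- library and 3.01 against 3.6 in the Lin28+/cKit+ library. Cycling Lin28+/cKit+ members were deeper, with a median of 23842 UMIs against 8913.

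The Lin28-/cKit- library held 15 macrophages among 3976 cells, and 14 of them met the rule. They were not counted as members because the rule names the Lin28+ libraries. Il1b stood at 787 CPM, Ccl3 at 1630 CPM, Ccl4 at 6856 CPM and H2-Eb1 at 281 CPM in their 106774 UMIs, and Folr2 had no UMI.

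The other 7 genes with opposite calls in the 2 libraries included Ifnb1 and Ifih1, picked after their values had been seen, with the difference between libraries untested. Ifnb1 stood at 28.3 against 45.4 CPM in the Lin28+/cKit- library and 91.6 against 31.4 CPM in the Lin28+/cKit+ library. Ifih1, a sensor of viral RNA, stood at 23.9 against 39.9 CPM and 49.2 against 28.2 CPM.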
